A study of Homo sapiens with 2 samples.

Results

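The clustered histone genes were taken as all genes whose symbol starts with HIST1H, HIST2H, HIST3H or HIST4H in the deposited gene list, which gave 71 of 32738 genes. They comprise 6 genes of the linker histone H1, 17 of H2A, 18 of H2B, 15 of H3 and 15 of H4. The data came from 1 droplet-based 3′ single-cell RNA library of the human iPSC line iPS11, a line derived from fibroblasts, in which CD34+ cells had been put through the endothelial-to-hematopoietic transition (EHT) for 5 days. The nonadherent cells of 4 coating conditions (Uncoated, VCAM1, DLL4 and DLL4+VCAM1), each pooled from 3 wells, were marked with antibody hashtags 0252, 0253, 0254 and 0255 and run together. The labels do not say which hashtag marks which coating, so hashtags are named by number only. Because there was 1 library and no replicate of any condition, no p-value is given, and each interval is an exact 95% interval that covers counting error only.

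Most histone mRNA is made while DNA is copied. The clustered genes have no introns in their classical form, and their mRNAs end in a conserved stem-loop instead of a poly(A) tail. The stem-loop is bound by SLBP and cut with the help of a small nuclear ribonucleoprotein, so an oligo(dT) primer should miss most of these transcripts. Some of the genes can also give longer, polyadenylated transcripts, and this form is known from cells that have stopped dividing. Replacement histones are encoded elsewhere, many of them by genes with introns, and many are polyadenylated throughout the cell cycle. Neither trait was checked for the replacement genes named below.

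Of the 71 genes, 66 could be matched to the GRCh37 gene annotation, 36 by gene identifier and 30 by name. A stem-loop of 16 bases was found downstream of the stop codon in 65 of these 66. Its distance was 23 to 68 bases with a median of 36. None was found for *HIST2H2BF*, but its search began at the stop codon shared by the most annotated transcripts. This codon lay 544 bases from the far end of a gene model of 29684 bases. No other stop codon of *HIST2H2BF* was searched, so a stem-loop elsewhere in the gene was not tested. The 5 genes with no match were *HIST1H2BE*, *HIST1H2BF*, *HIST1H2BG*, *HIST1H2BI* and *HIST1H4F*. The stem-loops below are those of the gene with the most counts, of 2 H1 genes, of *HIST1H2AH*, which shares a promoter interval with *HIST1H2BK*, and of the 7 genes described later as higher in cells with macrophage complement genes. Each is printed 5′ to 3′ on the strand of its gene, with the stem-loop in capitals.
HIST1H4C, chr6:26104540-26104569, plus strand: ccaaaGGCCCTTTTCAGGGCCgctcacaaa
HIST1H1B, chr6:27834566-27834595, minus strand: ccaaaGGCTCTTTTCAGAGCCacccagaga
HIST1H1C, chr6:26055963-26055992, minus strand: caaaaGGCTCTTTTCAGAGCCaccactgat
HIST1H2BK, chr6:27114136-27114165, minus strand: ccaaaGGCTCTTTTAAGAGCCacttaaatt
HIST1H2AH, chr6:27115320-27115349, plus strand: acaaaGGCTCTTTTCAGAGCCattctacac
HIST1H2AC, chr6:26124892-26124921, plus strand: ccaaaGGCTCTTTTCAGAGCCcccctaccg
HIST1H2BD, chr6:26158810-26158839, plus strand: ccaaaGGCTCTTTTAAGAGCCacgcatgtt
HIST1H2BJ, chr6:27100091-27100120, minus strand: ctaacGGCTCTTTTAAGAGCCacccatgtt
HIST2H2BE, chr1:149857729-149857758, minus strand: ccaaaGGCTCTTTTCAGAGCCacccaccta
HIST2H2AA3, chr1:149813781-149813810, minus strand: caaaaGGCTCTTTTCAGAGCCacccacgtt
HIST4H4, chr12:14923649-14923678, minus strand: caaaaGGCCCTTTTCAGGGCCcccaaactg
The form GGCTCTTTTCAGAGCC was shared by 38 genes, none of them H4, and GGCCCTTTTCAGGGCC by 9 genes, all of them H4. Genes with a stem-loop gave 99.2% of all UMIs of the clustered histone genes. A classical poly(A) signal, AATAAA, stood within 250 bases after the stop codon in 9 of 66 genes (13.6%), against 21.8% of 20176 protein-coding genes. For *HIST2H2BF*, which is among the 9, it was counted from the far stop codon named above. *HIST1H1C* had it at 56 bases, *HIST1H2BD* at 65 and *HIST1H4C* at 234.

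A cell was kept if it was called for 1 hashtag, its UMIs did not exceed 36000 nor its genes 6000, and mitochondrial genes gave no more than 18% of the UMIs. This left 7550 of 10836 barcodes with 142110950 UMIs and a median of 18319 UMIs per cell. The median by hashtag lay between 17621 and 18770. The hashtag calls covered all 10836 barcodes, and no barcode was repeated.

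A single H4 gene gave most of the histone counts. *HIST1H4C*, one of the genes encoding the core histone H4, had 206973 UMIs in kept cells, or 71.0% of the 291555 UMIs of all clustered histone genes. This is 1456 UMIs per 1000000 UMIs (CPM, interval 1450 to 1463), and placed the gene at rank 103 of 23268 genes with a UMI. The next gene, the linker histone gene *HIST1H1B*, had 97.9 CPM (96.3 to 99.5), so that *HIST1H4C* was 14.9 times as high. Summed over all 71 genes the level was 2052 CPM (2044 to 2059), and without *HIST1H4C* it was 595 CPM (591 to 599). Since a library primed on poly(A) also depends on what share of each gene's transcripts carries a tail, a gene with few transcripts and a gene with few polyadenylated transcripts cannot be told apart.

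The H1 genes came next in rank. *HIST1H1D* had 83.8 CPM, *HIST1H1C* had 71.9 CPM and *HIST1H1E* had 37.6 CPM, each a gene for a linker histone, the protein that binds DNA between nucleosomes. The H1 genes together had 299 CPM (296 to 302). The H2A genes had 129 CPM (127 to 131), the H2B genes 97.5 CPM (95.9 to 99.1) and the H3 genes 42.9 CPM (41.9 to 44.03). The H4 genes other than *HIST1H4C* had 27.0 CPM (26.2 to 27.9) over 14 genes. *HIST1H2BK*, encoding H2B, was the highest H2B gene with 41.6 CPM, and *HIST1H2AC* and *HIST2H2AC* were the highest H2A genes with 25.7 and 21.6 CPM. The first 12 genes also held the H3 gene *HIST1H3D* (14.7 CPM) and the H2A genes *HIST1H2AG* (14.4 CPM), *HIST1H2AH* (13.4 CPM) and *HIST1H2AM* (11.2 CPM). These 12 genes gave 92.1% of the UMIs.

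**Figure D1:**
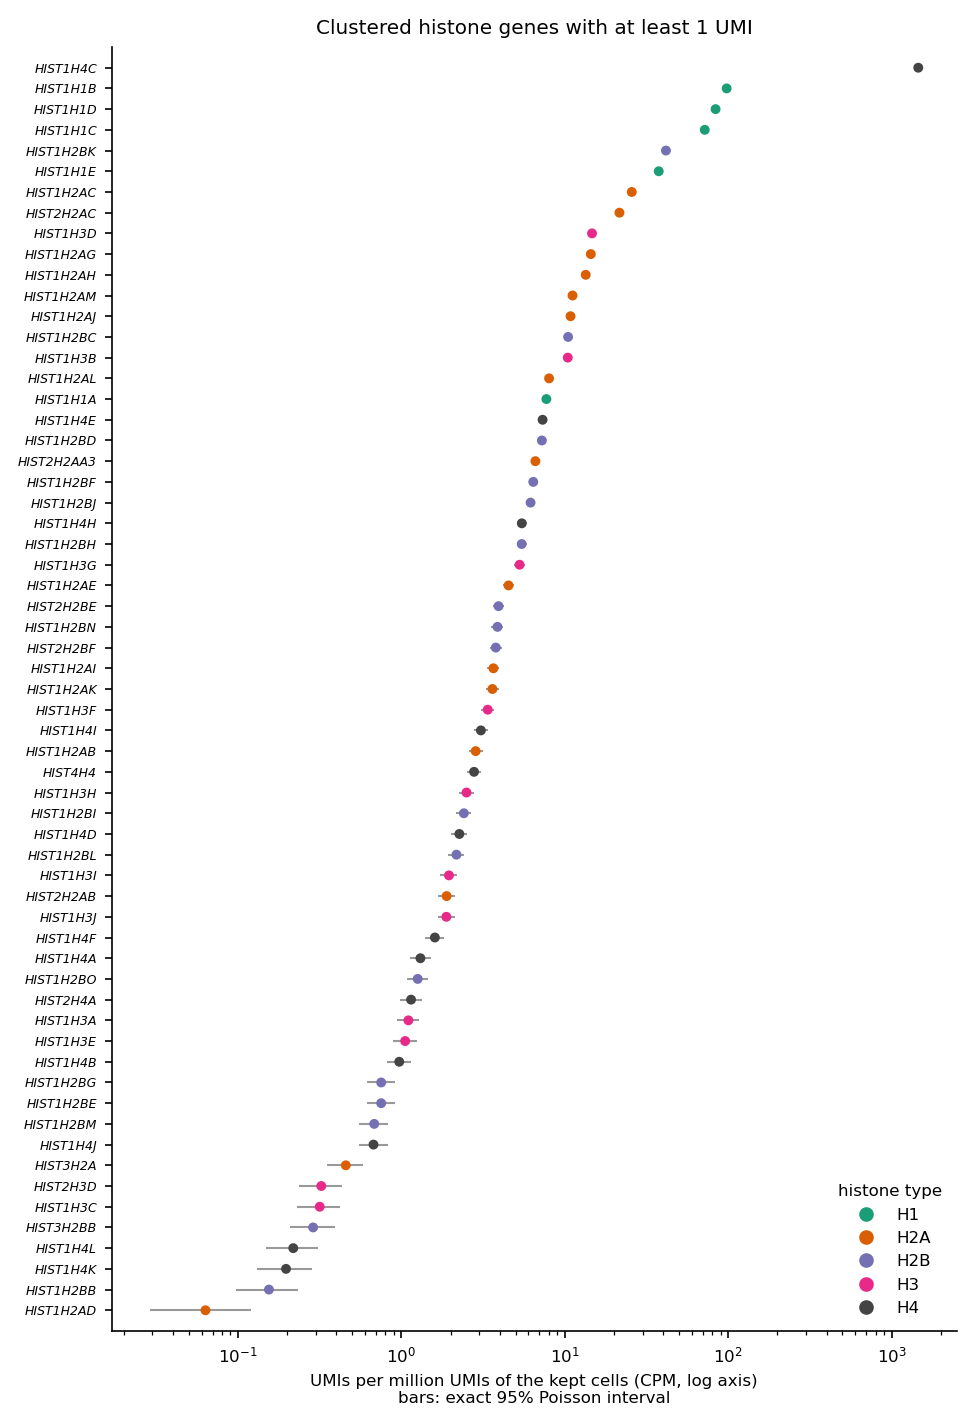
Level of each of the 61 clustered histone genes with a UMI, in CPM on a log axis, with exact 95% Poisson intervals and colors by histone type. *HIST1H4C* at 1456 CPM stands 14.9 times above the next gene, and H1 genes take the next 3 places.

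Another 32 genes had at least 100 but under 1000 UMIs, beside the 19 with at least 1000, and 10 had 1 to 99. The other 10 genes were at 0 UMIs, which allows up to 0.0211 CPM each. They were the genes *HIST1H1T*, *HIST1H2AA* and *HIST1H2BA*, known from the testis, together with *HIST1H4G*, *HIST3H3*, *HIST2H2AA4*, *HIST2H3A*, *HIST2H3C*, *HIST2H3PS2* and *HIST2H4B*. For several of these a count of 0 cannot be read as absence. Windows of 50 bases were taken from the coding sequence to shortly past the stop codon. All such windows of *HIST2H2AA3*, *HIST2H2AA4*, *HIST2H4A*, *HIST2H4B*, *HIST2H3A* and *HIST2H3C* occur in another member. A read of this length within that stretch cannot tell the copies apart. Sequence farther downstream was not searched for shared windows. The files list 940 UMIs under *HIST2H2AA3* and 163 under *HIST2H4A* and 0 under the other 4, and how the UMIs split between copies is uncertain. For *HIST1H4J* and *HIST1H4K* 86.7% of windows were shared, and for *HIST1H4C* none were.

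*HIST1H4C* was seen in 95.5% of kept cells (95.03 to 95.98%), and in 82.8% when each cell was thinned to 5000 UMIs. *HIST1H1B* was seen in 46.7% of cells (25.2% thinned), *HIST1H1C* in 57.1% (26.7% thinned) and *HIST1H2BK* in 46.6% (19.9% thinned). Thinning left out 68 cells with fewer than 5000 UMIs. The library holds no cell type that should lack histone transcripts, and the part of free RNA in these shares was not tested.

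The level of *HIST1H4C* per cell fell into a low and a high range. Of the kept cells, 51.2% had under 5 *HIST1H4C* UMIs per 10000 UMIs of the cell and 31.8% had at least 15, while only 3.77% lay near the upper limit, between 12 and 18. The median was 4.85 per 10000, the 75th percentile 24.4 and the 95th percentile 42.9.

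The question of a link to DNA synthesis was put with *PCNA*, the sliding clamp of DNA polymerase, and *TYMS*, the enzyme that makes thymidylate. The 25% of kept cells with the most UMIs of these 2 genes per 10000, 1888 cells, were called PCNA/TYMS-high, and the 677 cells with no UMI of either gene were called PCNA/TYMS-absent. At least 15 *HIST1H4C* UMIs per 10000 were found in 62.1% of PCNA/TYMS-high cells (59.9 to 64.3%), in 24.4% of the 4985 cells between (23.2 to 25.6%), and in 1.77% of PCNA/TYMS-absent cells (0.919 to 3.08%). The median was 24.5 per 10000 in PCNA/TYMS-high cells, 4.21 in the cells between and 2.09 in PCNA/TYMS-absent cells. So 12 of the 677 PCNA/TYMS-absent cells were in the high range, and 22.4% of PCNA/TYMS-high cells had under 5 per 10000. PCNA/TYMS-absent cells were also shallower, with a median of 11571 UMIs against 20155, and their median mitochondrial share was 14.4% against 12.7%, and 14.8% of them had no *HIST1H4C* UMI. All 14 mitosis genes described later were also at least 1.5-fold higher in PCNA/TYMS-high cells, with a median ratio of 5.04. The part of DNA synthesis alone in the class differences was not tested. The classes differed in cell type too. Cells with macrophage complement genes, described later as the C1Q gate, were 197 of the 677 PCNA/TYMS-absent and 61 of the 1888 PCNA/TYMS-high cells.

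**Figure D2:**
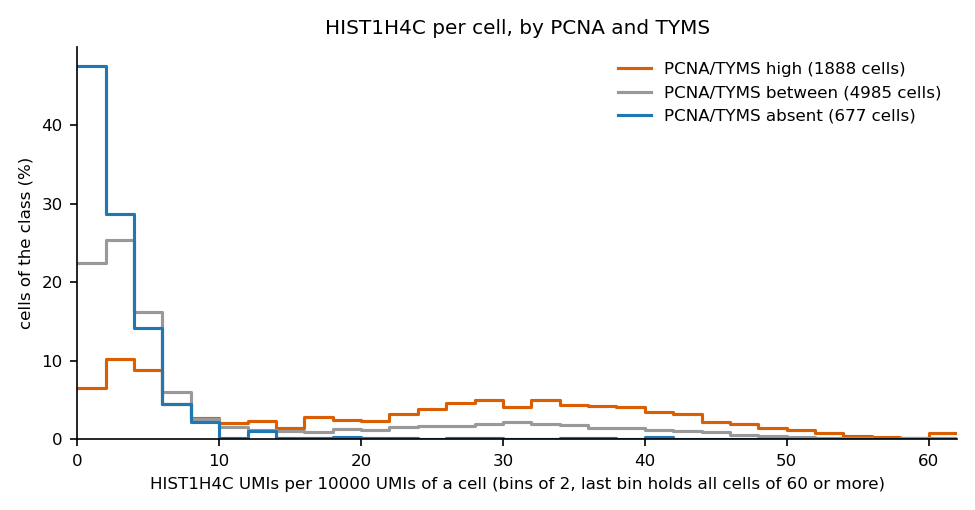
Distribution of *HIST1H4C* UMIs per 10000 UMIs of a cell, as the percent of the cells of each PCNA/TYMS class in bins of 2. PCNA/TYMS-absent cells lie almost all in the low range, with 1.77% at 15 or more, while 62.1% of PCNA/TYMS-high cells lie at 15 or more.

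Summed over the cells of a class, *HIST1H4C* had 2372 CPM in PCNA/TYMS-high and 278 CPM in PCNA/TYMS-absent cells, a ratio of 8.52 (8.17 to 8.88). In the order of hashtags 0252 to 0255, it had 2329, 2396, 2475 and 2280 CPM in PCNA/TYMS-high cells and 285, 240, 282 and 317 CPM in PCNA/TYMS-absent cells. The classes did not overlap in any hashtag, and the ratio lay between 7.19 and 9.97. When every cell was thinned to 5000 UMIs before the classes were drawn, the ratio was 3.57, and with 26 other S-phase genes plus *SLBP* in place of *PCNA* and *TYMS* (top against bottom 25% of cells) it was 6.71.

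Most of the other clustered histone genes were higher in PCNA/TYMS-high cells as well. Among genes with at least 100 UMIs over both classes, 42 of the 71 could be compared, and 30 were at least 1.5-fold higher and 5 at least 1.5-fold lower in PCNA/TYMS-high cells. Over all 11484 genes compared in the same way, 18.8% were higher and 16.5% lower by this limit. The median ratio was 3.04 for the 42 histone genes and 1.02 for all genes. The other 29 histone genes had too few UMIs. The 30 genes were higher within each of the 4 hashtags, on whose pooled cells they had been called. The share of all genes with such agreement was not counted. Some of these ratios rest on few UMIs, as for *HIST1H4D* with 2, 0, 0 and 0 in PCNA/TYMS-absent cells of hashtags 0252 to 0255.

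All 5 linker histone genes compared were higher. *HIST1H1B* had 180 CPM in PCNA/TYMS-high and 8.13 CPM in PCNA/TYMS-absent cells, the highest ratio of all at 22.1 (17.4 to 28.6). By hashtag it had 186, 175, 182 and 177 CPM in PCNA/TYMS-high cells against 7.02, 5.54, 8.19 and 14.3 CPM. *HIST1H1A* was 12.6-fold higher (6.57 to 27.7), *HIST1H1D* 7.27-fold (6.21 to 8.57) and *HIST1H1E* 4.59-fold (3.78 to 5.62). *HIST1H1C* differed least among the H1 genes over all cells of the classes, with 104 CPM against 63.2 CPM and a ratio of 1.64 (1.501 to 1.806). Its values within the marker gates are given further below. The other genes with the highest ratios were the H4 gene *HIST1H4D* at 14.8, resting on 2 UMIs in PCNA/TYMS-absent cells (4.02 to 123), the H2B gene *HIST2H2BF* at 9.52 (4.02 to 29.6) and the H2A gene *HIST1H2AL* at 9.25 (5.252 to 18.02). All 7 H3 genes compared were higher, with ratios of 2.81 to 8.99.

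The 5 genes that were lower in PCNA/TYMS-high cells all encode H2A or H2B. All 5 are also among the genes described later as higher in cells with macrophage complement genes. The PCNA/TYMS-absent class held a larger share of such cells, and the part of this in the ratios was not tested. *HIST1H2BK* had 31.5 CPM in PCNA/TYMS-high and 91.4 CPM in PCNA/TYMS-absent cells, a ratio of 0.344 (0.314 to 0.378). By hashtag it had 30.4, 32.7, 29.0 and 34.1 CPM against 100.1, 81.6, 90.1 and 89.4 CPM, with no overlap. *HIST1H2AC* had 19.7 against 49.1 CPM (ratio 0.401, 0.355 to 0.453), *HIST2H2AA3*, whose UMIs may include those of its copy *HIST2H2AA4*, 5.72 against 14.3 CPM (0.3996, 0.318 to 0.504), *HIST1H2BD* 5.98 against 12.01 CPM (0.498, 0.392 to 0.637) and *HIST2H2BE* 3.59 against 6.67 CPM (0.538, 0.391 to 0.749). The first 4 of these 5 were lower in each hashtag. *HIST2H2BE* was lower in 0252 and 0254 and higher in 0253 and 0255. Summed, the H2B genes were lower in PCNA/TYMS-high cells, with 95.1 against 146.2 CPM (ratio 0.651, 0.610 to 0.695). *HIST1H2BK* alone gave 31.5 and 91.4 CPM of these sums. Gene by gene, 4 of the 11 H2B genes compared were higher and 3 lower, with a median ratio of 0.948, against 18.8% and 16.5% of all genes. H1, H2A, H3 and H4 as groups had ratios of 4.75, 1.61, 4.51 and 8.06. Without *HIST1H4C* the H4 ratio was 1.67 (1.42 to 1.98). Gene by gene, 4 of the 6 H4 genes compared were higher and 0 lower, with a median ratio of 1.91.

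**Figure D3:**
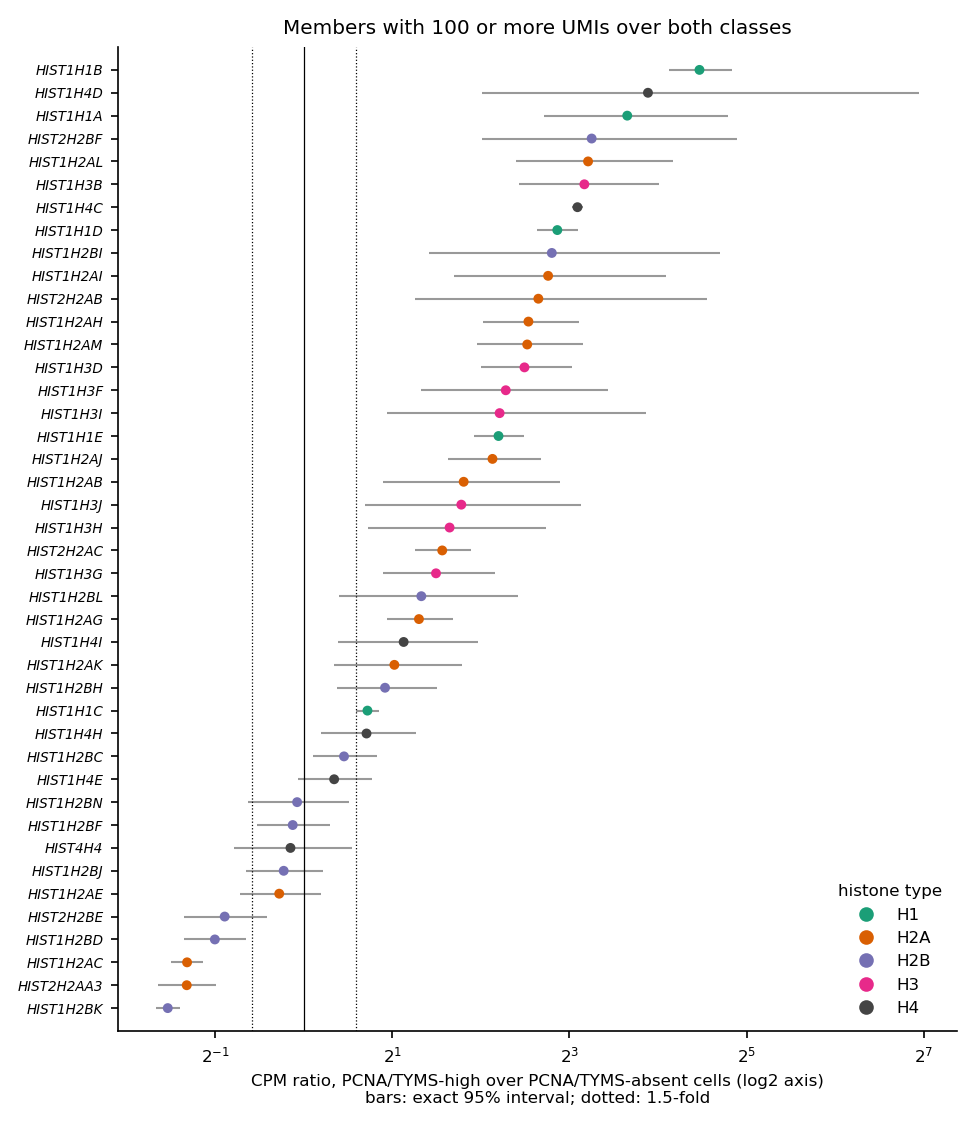
CPM ratio between PCNA/TYMS-high and PCNA/TYMS-absent cells on a log2 axis for the 42 clustered histone genes with at least 100 UMIs over both classes, with exact 95% intervals. The ratios range from 0.344 for *HIST1H2BK* to 22.1 for *HIST1H1B*, and the 5 genes below the lower dotted line encode H2A or H2B.

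Splitting cells by *HIST1H4C* itself, in a comparison added after the data were examined, gave a like picture for the other genes. Between the 2399 cells with at least 15 and the 3866 cells with under 5 *HIST1H4C* UMIs per 10000, 37 of 48 other clustered histone genes were at least 1.5-fold higher and 2 at least 1.5-fold lower, against 3.42% and 9.64% of all genes. *HIST1H1B* was again first with 224 against 14.8 CPM (15.2-fold, 14.2 to 16.2). The 2 lower genes were *HIST1H2BK* (0.510, 0.480 to 0.543) and *HIST1H2AC* (0.558, 0.517 to 0.603). When the kept cells were ranked by *HIST1H4C* and cut into 10 equal parts of 755 cells, the other clustered histone genes summed to 257 CPM in the lowest part, 333 CPM in part 6, and 955, 1070 and 1192 CPM in parts 8, 9 and 10. *HIST1H2BK* had 59.8 CPM in the lowest and 27.0 CPM in the highest part.

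With 14 mitosis genes such as *MKI67* and *TOP2A* set beside *PCNA* and *TYMS*, cells could be put in 4 classes, each mark being the top 25% of cells. The clustered histone genes summed to 3083 CPM in the 1405 cells with the S mark only, 3624 CPM in the 483 cells with both marks, 2181 CPM in the 1405 cells with the mitosis mark only and 1361 CPM in the 4257 cells with neither. All neighbors in this order differed by more than their counting intervals, which leave out the spread between cells. Without *HIST1H4C* the ratio of the mitosis mark only to neither mark was 1.14 (1.12 to 1.17), against 1.60 with it. That of both marks to the S mark only was 1.09 (1.06 to 1.11), against 1.18. Between the mitosis mark only and neither mark, 15 of 46 histone genes were at least 1.5-fold higher and 3 lower, against 3.71% and 7.92% of all genes. The 3 lower genes were *HIST1H2BK*, *HIST1H2AC* and *HIST1H2BD*, with ratios of 0.430, 0.477 and 0.623. Cells with the mitosis mark only were deeper, with a median of 23184 UMIs against 16525.

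Differentiation was read from marker gates. Cells with at least 5 UMIs per 10000 of *C1QA*, *C1QB* and *C1QC*, the complement genes of macrophages, formed the C1Q gate (702 cells). The same limit on *ELANE*, the neutrophil elastase gene, gave the ELANE gate (84 cells), and on *PF4* and *PPBP*, platelet chemokine genes, the PF4/PPBP gate (8 cells). At least 10 globin UMIs per 10000 gave the globin gate (349 cells). The CD34/GATA2 gate held 2541 cells with a UMI of *CD34* and of *GATA2*, both genes of blood progenitors, and in no lineage gate. Another 104 cells were in several lineage gates and 3762 in none. Markers not used for the gates were checked. All 7 macrophage markers were highest in the C1Q gate, all 5 granule and neutrophil markers in the ELANE gate, all 6 erythroid markers in the globin gate, and 5 of 6 megakaryocyte markers in the PF4/PPBP gate. The 6 progenitor markers summed to 601 CPM in the CD34/GATA2 gate, about the level in the ELANE gate (634 CPM) and the globin gate (627 CPM), so that gate is called by its genes only. It also held 289 CPM of 3 eosinophil markers, against 11.2 CPM in the C1Q gate, and 5 stromal markers summed to 63.4 CPM in the C1Q gate and 82.6 CPM in the globin gate against 19.2 CPM. The 6 megakaryocyte markers summed to 687 CPM in the globin gate, where 1 of the 6 was highest. In the PF4/PPBP and CD34/GATA2 gates they summed to 1075 and 133 CPM. The part in the results of cells with any of these markers was not tested.

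The clustered histone genes together were lower in the C1Q gate than in the CD34/GATA2 gate, and the sum of the others, without *HIST1H4C*, was near level. The sum was 1406 CPM (1382 to 1430) against 2126 CPM (2114 to 2138), a ratio of 0.661 (0.650 to 0.673). Without *HIST1H4C* it was 592 CPM (577 to 607) against 578 CPM (572 to 585), a ratio of 1.02 (0.995 to 1.05). This sum joins families that went both ways. H1 had a ratio of 0.844 (0.808 to 0.880) and H3 0.837 (0.745 to 0.938). H2B had 1.71 (1.61 to 1.81), H2A 1.03 (0.968 to 1.09) and H4 without *HIST1H4C* 1.10 (0.961 to 1.25). *HIST1H4C* had 633, 1044, 702 and 930 CPM in the C1Q gate of hashtags 0252 to 0255 and 1481, 1624, 1527 and 1584 CPM in the CD34/GATA2 gate, with no overlap. The C1Q gate also held fewer PCNA/TYMS-high cells, 8.69% (6.71 to 11.0%) against 29.0% (27.2 to 30.8%), and more PCNA/TYMS-absent cells, 28.1% against 6.49%. Its cells had a median of 12650 UMIs against 20289. Among PCNA/TYMS-high cells alone the sums were 3459 CPM in the C1Q gate and 3361 CPM in the CD34/GATA2 gate (ratio 1.03, 0.993 to 1.07), and among PCNA/TYMS-absent cells 625 and 602 CPM (1.04, 0.964 to 1.12). In the cells between the ratio was 0.820 (0.802 to 0.839). These sums join shifts in both directions. Without *HIST1H4C* the ratios were 1.34 (1.26 to 1.42) in PCNA/TYMS-high and 1.49 (1.35 to 1.65) in PCNA/TYMS-absent cells. In the cells between it was 1.21 (1.17 to 1.25). The H4 genes, *HIST1H4C* included, had 0.926, 0.641 and 0.680 in the same order. *HIST1H4C* itself had 183 against 306 CPM in PCNA/TYMS-absent cells (0.599, 0.528 to 0.678).

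In the globin gate the sum was 1931 CPM (1899 to 1964), a ratio of 0.908 to the CD34/GATA2 gate (0.892 to 0.925). It was lower in 3 hashtags and higher in 0254, where it was 2416 CPM against 2084 CPM, and without *HIST1H4C* the ratio was 1.02 (0.990 to 1.06). Thinned to 5000 UMIs per cell, the ratio for all genes was 1.01. In the ELANE gate the sum was 1674 CPM (1597 to 1754), a ratio of 0.787 (0.751 to 0.825). Of its 84 cells, 45 were from hashtag 0252 and 32 from 0253, with 1859 and 1238 CPM. The 8 cells of the PF4/PPBP gate had 690 CPM (572 to 825) from 120 UMIs. Their ratio of 0.324 went to 0.216 without hashtag 0252 and to 0.526 without 0253.

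**Figure D4:**
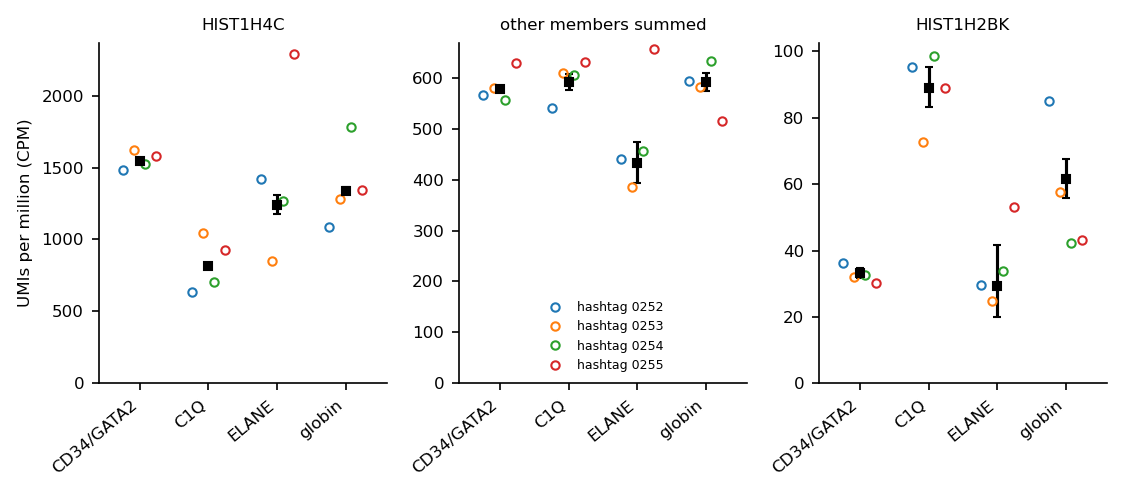
*HIST1H4C*, the sum of the other clustered histone genes, and *HIST1H2BK* in 4 marker gates, in CPM. Black squares are all cells of a gate with exact 95% Poisson intervals, and open circles are the cells of 1 hashtag (in the ELANE gate 45, 32, 4 and 3 cells). Of these gates, *HIST1H4C* is lowest in the C1Q gate (814 CPM), where *HIST1H2BK* is highest (89.1 CPM) and the other genes summed (592 CPM) stand near the CD34/GATA2 gate (578 CPM).

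Gene by gene, the C1Q gate differed from the CD34/GATA2 gate in both directions. Of 42 histone genes compared, 7 were at least 1.5-fold higher and 12 at least 1.5-fold lower in the C1Q gate, against 17.9% and 25.2% of all 12014 genes compared, shares of the same order (16.7% and 28.6% of the 42). The interval left out 1 for all 7 higher and for 9 of the 12 lower genes, and 6 of the 7 were higher within each hashtag. They had been called on the pooled hashtags, and the share of all genes with such agreement was not counted. With hashtag 0252 left out, 12 of 38 genes in all differed by this limit in place of 19 of 42.

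The 7 higher genes were among the 12 that had not been at least 1.5-fold higher in PCNA/TYMS-high cells. Of the other 5 of these 12, *HIST1H2BN* was lower in the C1Q gate (0.517, 0.314 to 0.810), and *HIST1H2AE*, *HIST1H2BC*, *HIST1H2BF* and *HIST1H4E* had ratios of 0.835 to 1.34. *HIST4H4*, the only member on chromosome 12, had 6.37 CPM in the C1Q gate and 1.95 CPM in the CD34/GATA2 gate (ratio 3.27, 2.35 to 4.53). *HIST1H2BK* had 95.4, 72.7, 98.8 and 89.1 CPM in the C1Q gate of hashtags 0252 to 0255 and 36.3, 32.1, 32.7 and 30.3 CPM in the CD34/GATA2 gate, a ratio of 2.68 (2.47 to 2.91) with no overlap. *HIST1H2AC* had 45.4, 34.2, 58.1 and 33.9 CPM against 21.0, 17.1, 20.05 and 19.4 CPM, a ratio of 2.24 (2.00 to 2.51), again with no overlap. The others were *HIST2H2BE* (2.16, 1.61 to 2.86), *HIST1H2BD* (1.98, 1.57 to 2.47), *HIST1H2BJ* (1.82, 1.40 to 2.34) and *HIST2H2AA3* (1.70, 1.37 to 2.11), which has the doubt over its copy and was not higher in hashtag 0254. The lowest ratios were those of *HIST1H2AL* (0.431, 0.300 to 0.603), *HIST1H4D* (0.450, 0.211 to 0.856) and *HIST2H2AB* (0.453, 0.202 to 0.893).

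The 2 gates were also compared within each PCNA/TYMS class. These cells are parts of the gates on which the 7 higher genes were picked, so the values are no separate evidence. In the cells between, S-phase genes were not level across the gates. *PCNA* and *TYMS* were 0.693 and 0.705 times as high in the C1Q gate, and of 27 other S-phase genes 14 were lower and 1 higher. Among the cells between, a comparison added after the data were examined, 10 of 33 histone genes were at least 1.5-fold higher in the C1Q gate and 2 lower, against 16.6% and 23.3% of all genes. *HIST4H4* (2.97), *HIST1H2BK* (2.44), *HIST1H2AC* (2.22), *HIST1H2BD* (2.17), *HIST1H2BJ* (2.08), *HIST2H2BE* (2.02) and *HIST2H2AA3* (1.73) were among the 10. Among PCNA/TYMS-high cells, of which the C1Q gate held 61, 6 of 25 were higher and 3 lower, against 15.3% and 22.3%. There *HIST1H2BK* had 49.6 against 25.6 CPM (1.94, 1.40 to 2.62) and *HIST1H2AC* 34.8 against 15.7 CPM (2.22, 1.498 to 3.202). The remaining higher genes, *HIST1H3B*, *HIST1H1C*, *HIST1H1D* and *HIST1H2AM*, are not among the 7. *HIST2H2AA3* was among the 3 lower genes, and the interval left out 1 for none of these 3. Among PCNA/TYMS-absent cells only 4 histone genes had enough UMIs, and *HIST1H2BK* had 124 against 64.4 CPM (1.93, 1.58 to 2.36) and *HIST1H2AC* 44.2 against 34.3 CPM (1.29, 0.949 to 1.75).

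Over all cells of the gates *HIST1H1C* stood apart, with the highest C1Q ratio of the 5 H1 genes compared and a median of 0.784 for the 5. It had 94.3 CPM in the C1Q gate and 66.3 CPM in the CD34/GATA2 gate, a ratio of 1.42 (1.32 to 1.53), and was higher in each hashtag, by 1.23-fold to 1.59-fold. *HIST1H1B*, by contrast, had 58.1 against 104 CPM (0.557, 0.510 to 0.607). Among PCNA/TYMS-absent cells *HIST1H1C* had 102 CPM in the C1Q gate and 35.5 CPM in the CD34/GATA2 gate (2.86, 2.23 to 3.70), and among PCNA/TYMS-high cells 165 and 101 CPM (1.63, 1.38 to 1.93). Within the CD34/GATA2 gate the 2 classes thus had 101 and 35.5 CPM, further apart than the 104 and 63.2 CPM over all cells. *HIST1H1C* was thus high in PCNA/TYMS-high cells and in the C1Q gate both. It was not alone among PCNA/TYMS-high cells. There all 5 H1 genes compared were higher in the C1Q gate, by 1.21-fold to 1.63-fold with a median of 1.23. *HIST1H1D* also passed 1.5-fold there, with an interval that left out 1.

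Many H2A and H2B genes lie head to head and share the DNA between their start sites. There were 10 such pairs with start sites at most 300 bases apart, and in 5 of them one partner is among the 12 genes with the most counts. The interval between *HIST1H2BK* (to the left, minus strand) and *HIST1H2AH* (to the right, plus strand), chr6:27114635-27114884 on GRCh37, is shown because its partners differed most in both comparisons, among the 6 pairs in which both genes could be compared. It is printed on the plus strand, with the octamer ATGCAAAT, a motif of Oct factors known from H2B promoters, in capitals.
HIST1H2BK and HIST1H2AH: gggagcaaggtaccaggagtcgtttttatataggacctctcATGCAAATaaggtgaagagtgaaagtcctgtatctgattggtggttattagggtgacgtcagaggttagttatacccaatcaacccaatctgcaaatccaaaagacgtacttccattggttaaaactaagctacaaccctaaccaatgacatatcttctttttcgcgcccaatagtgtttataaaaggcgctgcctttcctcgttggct
HIST2H2BE and HIST2H2AC, chr1:149858233-149858467: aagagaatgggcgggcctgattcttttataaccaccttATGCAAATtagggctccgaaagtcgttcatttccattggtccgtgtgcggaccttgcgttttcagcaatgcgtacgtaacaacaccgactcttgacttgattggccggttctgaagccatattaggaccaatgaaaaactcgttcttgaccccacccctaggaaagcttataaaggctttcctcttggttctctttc
In RefSeq promoters of GRCh38.p14 (250 bases before to 50 bases after the start), the octamer on either strand was found in 68.8% of 16 H2A and 66.7% of 15 H2B promoters, in 6.67% of 15 H3 promoters, in none of 6 H1 or 13 H4 promoters, and in 1.77% of all 35116 promoters. CCAAT on either strand, whose end letters can overlap those of an octamer, was in all H1, H2A, H2B and H3 promoters, in 23.1% of H4 promoters and in 34.6% of all.

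In 4 of these 6 pairs the partners lay on opposite sides of 1 in the C1Q gate. *HIST1H2BK* had a PCNA/TYMS-high over PCNA/TYMS-absent ratio of 0.344 and *HIST1H2AH*, on the other side, 5.80 (4.06 to 8.59). In the C1Q gate their ratios to the CD34/GATA2 gate were 2.68 and 0.558 (0.436 to 0.705). By hashtag *HIST1H2AH* had 6.99, 7.69, 7.51 and 10.9 CPM in the C1Q gate and 13.2, 14.7, 14.4 and 15.8 CPM in the CD34/GATA2 gate, the reverse of its partner. Across the interval shown second, *HIST2H2BE* had 0.538 and *HIST2H2AC* 2.95 (2.39 to 3.70) in the first comparison, and 2.16 and 0.816 (0.691 to 0.959) in the second. *HIST1H2AC* and *HIST1H2BC* had 0.401 and 1.37 (1.07 to 1.77), then 2.24 and 0.835 (0.659 to 1.05). *HIST1H2BJ* and *HIST1H2AG* had 0.854 (0.638 to 1.16) and 2.46 (1.91 to 3.22), then 1.82 and 0.757 (0.618 to 0.921). The other 2 pairs did not part in this way. *HIST1H2BL* and *HIST1H2AI* had 2.51 (1.32 to 5.37) and 6.77 (3.23 to 17.03), then 0.646 (0.359 to 1.09) and 0.765 (0.496 to 1.14). *HIST1H2AK* and *HIST1H2BN* had 2.03 (1.26 to 3.45) and 0.948 (0.646 to 1.43), then 0.686 (0.429 to 1.05) and 0.517. In the other 4 of the 10 pairs at least 1 gene had too few UMIs. Both comparisons draw on the same library, so they are set side by side only.

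**Figure D5:**
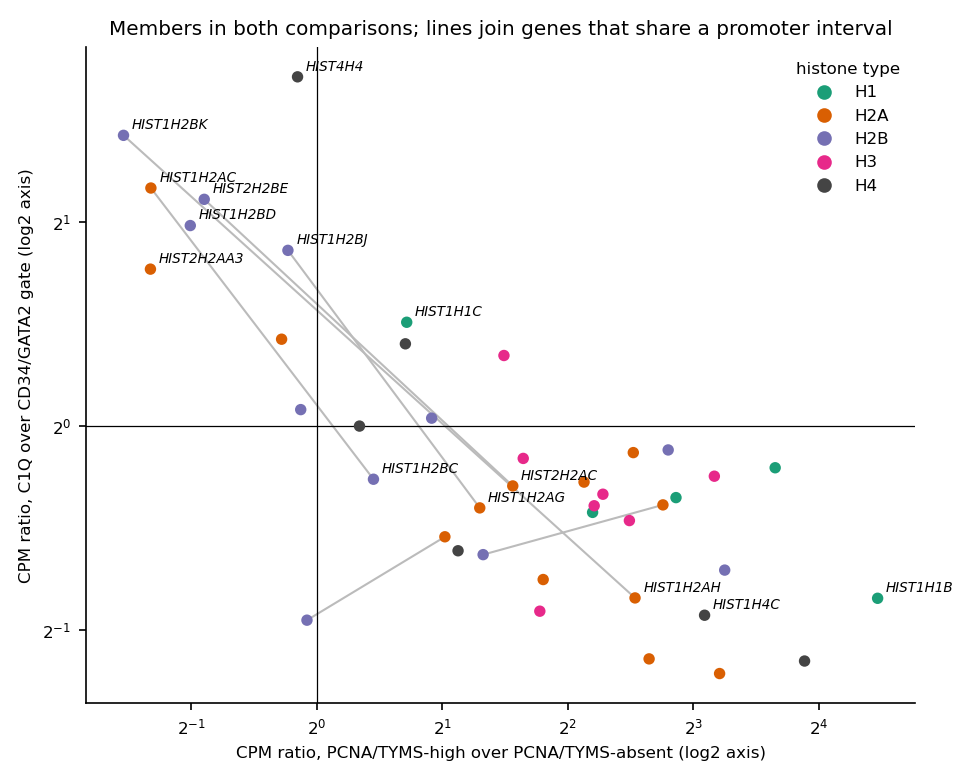
The 42 clustered histone genes in both comparisons, with the PCNA/TYMS-high over PCNA/TYMS-absent CPM ratio on the x axis and the C1Q over CD34/GATA2 ratio on the y axis, both on log2 axes. Lines join genes that share a promoter interval, and *HIST1H2BK* (0.344 and 2.68) and *HIST1H2AH* (5.80 and 0.558) lie at opposite corners. The comparisons share cells of 1 library.

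The genes were also described by where their annotated transcripts end. In 18 of the 66 matched genes the annotation holds a transcript whose end lies over 200 bases past the stop codon. The distance was measured on the genome and includes any introns. This end is beyond the stem-loop, except for *HIST2H2BF*, where none was found and the far stop codon was used. Whether the transcript itself holds the stem-loop was not checked. Of these 18, 11 could be compared, with a median PCNA/TYMS ratio of 0.9003, and 3 were higher and 4 lower by at least 1.5-fold, against 18.8% and 16.5% of all genes. Of the 48 genes whose annotated transcripts all end at most 200 bases past the stop codon, 29 could be compared. Their median was 4.59, and 26 were higher and 1 lower. In the C1Q gate the medians were 1.70 and 0.763. There 6 of the 11 genes with a far end were higher and 2 lower, *HIST1H2BN* and *HIST2H2BF*, and 1 of the other 29 was higher and 10 lower, against 17.9% and 25.2% of all genes. Among the 6 higher genes the farthest end of *HIST1H2AC* lies 14491 bases past the stop codon on the genome, *HIST1H2BD* 12799, *HIST1H2BJ* 6473, *HIST4H4* 2774, *HIST2H2BE* 1801 and *HIST2H2AA3* 368. *HIST1H2AC*, *HIST1H2BD*, *HIST1H2BJ* and *HIST4H4* have annotated transcripts with 2 exons, so their distances are not transcript lengths. The higher gene without such a far end was *HIST1H2BK*, with 57 bases in this annotation. The authors' counts were made on other gene models, which were not seen. Their ends may differ, for *HIST1H2BK* too, so it cannot be called an exception for the counted model. The files hold counts per gene, so which transcript end gave the UMIs was not tested.

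In the globin gate 2 of 42 histone genes were at least 1.5-fold higher and 7 lower than in the CD34/GATA2 gate, against 7.64% and 15.4% of all genes. The 2 higher genes were *HIST2H2BE* (6.22 against 3.33 CPM, ratio 1.87, 1.31 to 2.61) and *HIST1H2BK* (61.6 against 33.2 CPM, 1.86, 1.67 to 2.06). Both were higher in each hashtag, *HIST1H2BK* with 85.1, 57.8, 42.4 and 43.2 CPM in the globin gate. With hashtag 0252 left out, 5 of 38 genes differed in place of 9 of 42. The third highest was *HIST1H2BN* (1.39, 0.970 to 1.94). *HIST1H2BL* (0.222, 0.0596 to 0.582), *HIST4H4* (0.363, 0.115 to 0.874) and *HIST1H3I* (0.489, 0.192 to 1.04) were the lowest. *HIST4H4* was therefore high in the C1Q gate and low in the globin gate, there with 5 UMIs.

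In the ELANE gate 1 of 42 histone genes was at least 1.5-fold higher and 17 lower, against 21.1% and 24.5% of all genes, but 13 of the 42 had at most 3 UMIs in the 84 cells. The interval left out 1 for 3 of the 17, *HIST1H1B*, *HIST1H2AJ* (0.262, 0.0538 to 0.769) and *HIST1H2BF* (0.145, 0.00366 to 0.813), and not for the higher gene, *HIST1H3J* (1.96, 0.524 to 5.17). The next 2, *HIST1H3H* and *HIST2H2BE*, had ratios of 1.43 and 1.42. *HIST1H4D*, *HIST1H2BL* and *HIST1H3I* had no UMI there, and the upper bounds of their ratios were 1.55, 1.39 and 1.75. Of the 11 replacement histone genes, 7, among them *H2AFZ* and *H3F3B*, were also at least 1.5-fold lower in this gate.

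In the PF4/PPBP gate 4 of 42 were higher and 32 lower, against 20.6% and 37.4% of all genes, and 24 of the 42 had no UMI in the 8 cells, so most differences were not detectable at this depth. The interval left out 1 for *HIST1H2AC* (63.2 against 19.5 CPM, ratio 3.25, 1.62 to 5.84, from 11 UMIs) and, among the lower genes, for *HIST1H4C*, *HIST1H1B*, *HIST1H1D* and *HIST1H1E*. *HIST2H2AA3* and *HIST1H2BK* had ratios of 1.70 and 1.56 with intervals from 0.205 to 6.19 and from 0.711 to 2.96.

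Between hashtags the clustered histone genes differed little. The sum was 1955 CPM (1941 to 1968) in 0252, 2079 CPM (2064 to 2093) in 0253, 2061 CPM (2046 to 2076) in 0254 and 2141 CPM (2124 to 2158) in 0255. Hashtags 0253 and 0254 did not differ by more than their counting intervals, and the highest was 1.10 times the lowest. These intervals leave out the spread between cells. Over kept cells the variance of *HIST1H4C* UMIs was 43.0 times their mean. Whether any hashtags differ beyond that spread was not tested. The share of PCNA/TYMS-high cells was also lowest in 0252 (23.6%, 21.9 to 25.5%) and highest in 0255 (26.9%, 24.7 to 29.2%), with 25.5% in 0253 and 24.5% in 0254. Within PCNA/TYMS-high cells the order was another, with 3189, 3262, 3349 and 3143 CPM in hashtags 0252 to 0255.

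Of 51 histone genes with at least 100 UMIs, 3 had a highest hashtag at least 1.5 times the lowest, against 17% of 13489 genes. They were *HIST1H4B* (0.891, 1.33, 0.720 and 0.912 CPM in hashtags 0252 to 0255), *HIST1H4D* (2.15, 2.13, 1.93 and 3.02 CPM) and *HIST1H3A* (1.14, 1.22, 1.18 and 0.806 CPM). These rest on 23 to 87 UMIs per hashtag. None of the 19 genes with at least 1000 UMIs passed this limit. The median ratio of highest to lowest was 1.27 for the 51 genes and 1.17 for all genes compared. The highest hashtag was 0255 for 25 of the 51 genes. *HIST1H4C* had 1376, 1493, 1464 and 1512 CPM, *HIST1H1B* 92.6, 96.5, 97.2 and 108 CPM, and *HIST1H2BK* 45.7, 37.7, 42.1 and 40.5 CPM in hashtags 0252 to 0255.

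Other genes of the histone supply pathway were set beside these values, and their counts are to be read against 18.8% of all genes higher and 16.5% lower in PCNA/TYMS-high cells, and 17.9% higher and 25.2% lower in the C1Q gate. *SLBP*, the stem-loop binding protein, was 2.75-fold higher in PCNA/TYMS-high than in PCNA/TYMS-absent cells and 0.561 times as high in the C1Q as in the CD34/GATA2 gate. Of the 11 genes found for histone mRNA processing, 5 were at least 1.5-fold higher in PCNA/TYMS-high cells and none lower, and in the C1Q gate 2 were lower, *SLBP* and *CSTF2*, a share below that of all genes. Of 10 histone chaperones, 7 were higher in PCNA/TYMS-high cells, with *ASF1B* at 9.39-fold and *CHAF1A*, a subunit of chromatin assembly factor, at 7.02-fold, and 4 were lower in the C1Q gate. Of 11 replacement histone genes, 4 were higher in PCNA/TYMS-high cells and none lower. *H2AFX* was 4.10-fold and *H2AFZ* 3.41-fold higher, while the H3.3 gene *H3F3B* had a ratio of 0.979 and the linker histone gene *H1F0* 0.683. *H2AFJ* was the replacement gene higher in the C1Q gate, at 2.55-fold, with a PCNA/TYMS ratio of 0.703. All 27 other S-phase genes were higher in PCNA/TYMS-high cells, with a median ratio of 6.09, and 18 of the 27 were lower in the C1Q gate. The 14 mitosis genes were all higher in PCNA/TYMS-high cells too, with a median ratio of 5.04. None of them passed the 1.5-fold limit in the C1Q gate.

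Across 7482 thinned cells, *HIST1H4C* per cell followed the summed other S-phase genes with a Spearman coefficient of 0.449 and the mitosis genes with 0.315. *HIST1H1B* had a coefficient of 0.510 with *HIST1H4C*, *HIST1H1D* 0.394 and *HIST1H1C* 0.273. *HIST1H2BK* and *HIST1H2AC* had −0.126 and −0.101. The cells share 1 library, and the coefficients are given as descriptions.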

How the data were processed

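UMI counts per gene and barcode were deposited by the authors without normalization, from Cell Ranger 6.0.1 on the hg19 build, beside 1 hashtag call per barcode. The calls were used as deposited, and 1339 barcodes called Doublet and 1009 called Negative were left out. No doublet caller was run on the others. UMIs were summed over the cells of a group and divided by all gene UMIs of the group. Intervals are exact Poisson (levels), Clopper-Pearson (shares) and conditional binomial (ratios) at 95%. A gene was compared if it had at least 100 UMIs over both groups and was called at 1.5-fold. This step was tested on simulated group counts drawn without variation between cells, so the test says nothing about that spread. Thinning drew 5000 UMIs per cell (seed 1).

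The 12 genes with the most UMIs, the 5 highest and 5 lowest by the PCNA/TYMS ratio, the 3 highest and 3 lowest per gate and the 3 most different between hashtags were named by rule. Others were named after their values were seen, among them the divergent partners. Members, lists and gates were chosen with earlier results of these data known. Gene positions and transcript ends came from GENCODE on GRCh37, not from the gene models used for counting, and promoter motifs from RefSeq on GRCh38.p14. Python 3.11.15, numpy 2.4.6, scipy 1.17.1, pandas 2.3.3 and matplotlib 3.10.9 were used. Alternatives covered cell limits, thinning, count minimum, fold, class and gate limits, hashtags left out and the sum without *HIST1H4C*.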

Additional observations from a re-analysis of the deposited data

Results flagged for a closer look

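Barcodes outside the comparisons also carried histone counts. In the 1009 barcodes called Negative for all hashtags the clustered histone genes had 1600 CPM (1580 to 1621), and in the 1339 barcodes called Doublet 1846 CPM (1833 to 1860), against 2052 CPM in kept cells. Both are far above the limit that a count of 0 allows (0.207 and 0.0753 CPM), which is what drew attention to them. Passing that limit shows only that the genes were detected. *HIST1H4C* gave 65.9% and 72.8% of these UMIs, against 71.0% in kept cells. The Negative barcodes had a median of 14456 UMIs and the Doublet barcodes 27367.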

How the results depend on the processing

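There was 1 library, so the values are set side by side without a test, and the cause of each shift was not tested. In the order given by gate, ratios are to the CD34/GATA2 gate. Of the 185 alternative values, 80 stayed within the counting interval (or within 1.5 times for counts of genes), 99 moved and 6 changed direction. Counts of genes below are given out of the genes compared at that setting. Shares of all genes at these settings are not given, so the counts alone do not show a rise or fall. Without limits on cells the sum was 1962 CPM, the C1Q and PF4/PPBP ratios 0.685 and 0.441, and the *HIST1H4C* share 70.7%. With at most 10% mitochondrial UMIs these were 2365 CPM, 0.523, 0.117 and 70.0307%, and the globin ratio was 0.689. The *HIST1H4C* PCNA/TYMS ratio was 5.78, with 7 of 10 genes higher. The genes that differed numbered 5 of 6, 1 of 5, 5 of 5 and 1 of 5 in the C1Q, ELANE, PF4/PPBP and globin gates. Between hashtags the sum differed 1.24-fold and 8 of 18 genes passed. Thinned to 5000 UMIs the sum was 1874 CPM and the share 69.6%. The *HIST1H4C* PCNA/TYMS ratio was 3.57, with 16 of 26 genes higher. The C1Q, ELANE and globin ratios were 0.674, 0.747 and 1.01. By gate 5 of 8, 1 of 7, 6 of 7 and 1 of 8 genes differed, and 8 of 34 passed between hashtags. With a minimum of 30 UMIs 17 of 54 genes differed in the globin gate and 9 of 58 between hashtags. With a minimum of 1000 UMIs 6 of 8 genes were higher in PCNA/TYMS-high cells. By gate 4, 1, 8 and 1 differed, each out of 8, and 0 of 19 between hashtags. With 1 UMI in each group 13 of 19 differed in the PF4/PPBP gate, 18 of 58 in the globin gate and 12 of 61 between hashtags. At 2-fold 7, 10 and 4 differed in the C1Q, ELANE and globin gates, each out of 42, and 0 of 51 between hashtags. The *HIST1H4C* PCNA/TYMS ratio was 9.71 for the top 10% of cells, and 6.71 with classes drawn by the other S-phase genes. It was 8.15, 12.5, 13.7, 9.09 and 9.91 within the CD34/GATA2, C1Q, ELANE, PF4/PPBP and globin gates. In the C1Q, ELANE and globin gates 4 of 6, 1 of 1 and 6 of 7 genes compared were higher. In the PF4/PPBP gate no gene could be compared. With doubled gate limits the C1Q and PF4/PPBP ratios were 0.568 and 0.455. With limits at 50% the C1Q ratio was 0.707 and 11 of 42 genes differed in the ELANE gate. With limits at 20%, chosen after seeing the data, the C1Q, ELANE and PF4/PPBP ratios were 0.716, 0.834 and 0.413 and 8 of 42 genes differed in the ELANE gate. In PCNA/TYMS-absent cells the ratios by gate were 1.04, 0.608, 0.486 and 0.986. There 3 of 4, 2 of 2, 2 of 2 and 1 of 4 genes differed, and the hashtags differed 1.27-fold. In PCNA/TYMS-high cells the C1Q, PF4/PPBP and globin ratios were 1.03, 0.425 and 1.03, with 9 of 25, 22 of 24 and 4 of 27 genes. In the cells between, also chosen after seeing the data, the C1Q, ELANE and globin ratios were 0.820, 0.993 and 0.803, with 12 of 33 and 10 of 31 genes in the first 2. Without *HIST1H4C* the sum was 595 CPM and the ratios 1.02, 0.748, 0.477 and 1.02. In the CD34/GATA2 gate the hashtags differed 1.08-fold and 10 of 42 genes passed. Leaving out 1 hashtag at a time, the sum ran from 2029 to 2090 CPM and the *HIST1H4C* PCNA/TYMS ratio from 8.13 to 8.82. The gate ratios ran from 0.626 to 0.696 (C1Q), 0.685 to 0.924 (ELANE), 0.216 to 0.526 (PF4/PPBP, the lowest without 0252 and the highest without 0253) and 0.832 to 0.951 (globin). The genes that differed ran from 12 of 38 (without 0252) to 20 of 41 (without 0255) in the C1Q gate. In the globin gate they ran from 5 of 38 (without 0252) to 8 of 38 (without 0253). Classes and gates were also compared within each hashtag, and these 4 ratios per gene were not tested, since the hashtags mark different coatings and are not replicates of 1 condition.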
